A study of Mus musculus with 18 samples.

Results

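The complement genes described here are C1qa, C1qb, C1qc, C3, C4b, C3ar1, C5ar1 and Serping1, 8 of the 57180 gene identifiers in the table. They were chosen as a list of symbols, by a rule that uses no measured value, and matched to their Ensembl rows. Earlier results of these data were known when the list was chosen. All 8 had enough counts to be among the 16738 genes tested. The libraries came from hippocampus of adolescent, male, wild-type C57BL/6J mice, 1 library per mouse and 6 mice in each of 3 groups. Control mice were untreated. CSDS mice underwent chronic social defeat stress, in which a mouse is repeatedly placed with an aggressive resident. Trained mice underwent the same defeat and also exercised aerobically, starting 1 week before it and continuing through it. No group was trained without being defeated, so training is compared here only on a background of defeat. All 18 libraries carry the same batch label.

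Complement is a cascade of proteins that tags targets for removal. In the classical pathway, C1q binds its target and the attached proteases cut C4 and C2. The enzyme that these form cuts C3, whose fragments coat the target and signal through receptors such as C3ar1, while C5a signals through C5ar1. In brain, microglia are the main source of C1q, astrocytes and other cells make C4 and C3, and C1q and C3 are known for marking synapses that microglia engulf during development and in disease. Serping1 encodes C1 inhibitor, which blocks the proteases attached to C1q.

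The C1q genes lie next to each other on chromosome 4 in the order C1qb, C1qc, C1qa in RefSeq's GRCm38.p6 annotation. C1qb and C1qc were the 2 of the 3 with an entry in the RefSeq promoter table, and the 250 bases before their start sites are shown because the C1q genes varied together over mice. The capitals mark GAGGAA on either strand, the core recognised by the myeloid transcription factor PU.1. C1qb is shown at chr4:136886201-136886450 and C1qc at chr4:136892915-136893164, both on the minus strand, from 5′ to 3′:
C1qb: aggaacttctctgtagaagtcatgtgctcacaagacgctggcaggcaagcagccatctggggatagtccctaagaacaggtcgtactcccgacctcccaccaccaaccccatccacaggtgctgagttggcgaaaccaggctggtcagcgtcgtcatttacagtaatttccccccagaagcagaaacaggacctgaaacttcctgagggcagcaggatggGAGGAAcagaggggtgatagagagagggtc
C1qc: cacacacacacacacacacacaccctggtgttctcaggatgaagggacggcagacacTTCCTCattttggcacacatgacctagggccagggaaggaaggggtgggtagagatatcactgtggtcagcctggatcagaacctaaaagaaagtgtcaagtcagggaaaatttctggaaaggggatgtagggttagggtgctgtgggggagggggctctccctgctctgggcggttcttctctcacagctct
The match began at position -30 from the start site in C1qb, and at -193 on the opposite strand in C1qc. Of 32851 RefSeq promoters, each taken from 250 bases before to 50 after the start site, 28.3% held GAGGAA on either strand, so a match is common. The entries for C3, C3ar1 and C5ar1 did not hold these letters. C1qa, C4b and Serping1 had no entry.

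For C4b the sequence bears on how well it can be counted, because mouse carries a near copy, C4a, annotated by RefSeq as a transcribed pseudogene on chromosome 17 with only Cyp21a1 between them among coding genes. In GENCODE M21, transcripts C4b-201 and C4a-201 were identical at 96.2% of 5357 aligned bases. The stretch below, bases 2761 to 2820 of C4b-201 and inside its coding part, is among the places where they differ, and capitals mark the 13 differing bases:
C4b-201: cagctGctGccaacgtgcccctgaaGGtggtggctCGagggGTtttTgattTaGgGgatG
C4a-201: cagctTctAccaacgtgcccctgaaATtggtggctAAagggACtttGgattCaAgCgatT
Of all windows of 100 bases in C4b-201, 16.5% were also present in C4a-201, and 8.26% of those of 150 bases. The estimated count of C4b was not whole in 17 of 18 libraries, as happens when reads are divided between genes, whereas the other 7 genes had whole counts throughout. C4a itself averaged 0.626 CPM (counts scaled to library size), against 42.9 CPM for C4b. How the reads were divided was not tested.

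Total estimated counts were 18911080 to 24136591 per library. Each of the 8 genes was counted in every library, with totals over the 18 libraries from 332 for C5ar1 to 16671 for C4b. Control replicate 2 stood apart in its regional markers. Its mean over 8 dentate granule cell markers was 2.04 log2 CPM against 5.15 to 6.03 in the other 17 libraries, and over 8 neocortical neuron markers 5.82 against 3.28 to 4.14. Libraries also differed in how expression depended on the GC content of transcripts. The slope of this trend was 0.05 ± 0.15 log2 units per 10 percentage points of GC in control, 0.12 ± 0.18 in CSDS and -0.16 ± 0.21 in trained mice (SD, n = 6). Exercise replicate 4, at 0.19, was the only trained mouse with a positive slope. Values below with a GC correction have each library's trend removed.

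Levels of different genes are comparable only per length, here as CPM per kilobase of annotated exon. C1qa and C1qb were the most abundant of the 8, at 37.1 and 34.0 CPM per kilobase over the 18 libraries. In control mice these levels were 38.0 ± 7.72 and 35.1 ± 5.26 (SD, n = 6), which did not differ beyond their spread. C1qc followed at 17.7 CPM per kilobase by all its exons, or 28.4 by its longest coding transcript, so its distance from the other 2 depends on the length used. C4b was at 7.54 and Serping1 at 3.60 CPM per kilobase. The receptor gene C3ar1 at 0.566, C3 at 0.460 and the receptor gene C5ar1 at 0.337 formed the low end. In control mice these low 3 were at 0.548 ± 0.146, 0.509 ± 0.212 and 0.303 ± 0.0556, so that C3ar1 and C3 did not differ beyond their spread.

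**Figure D1:**
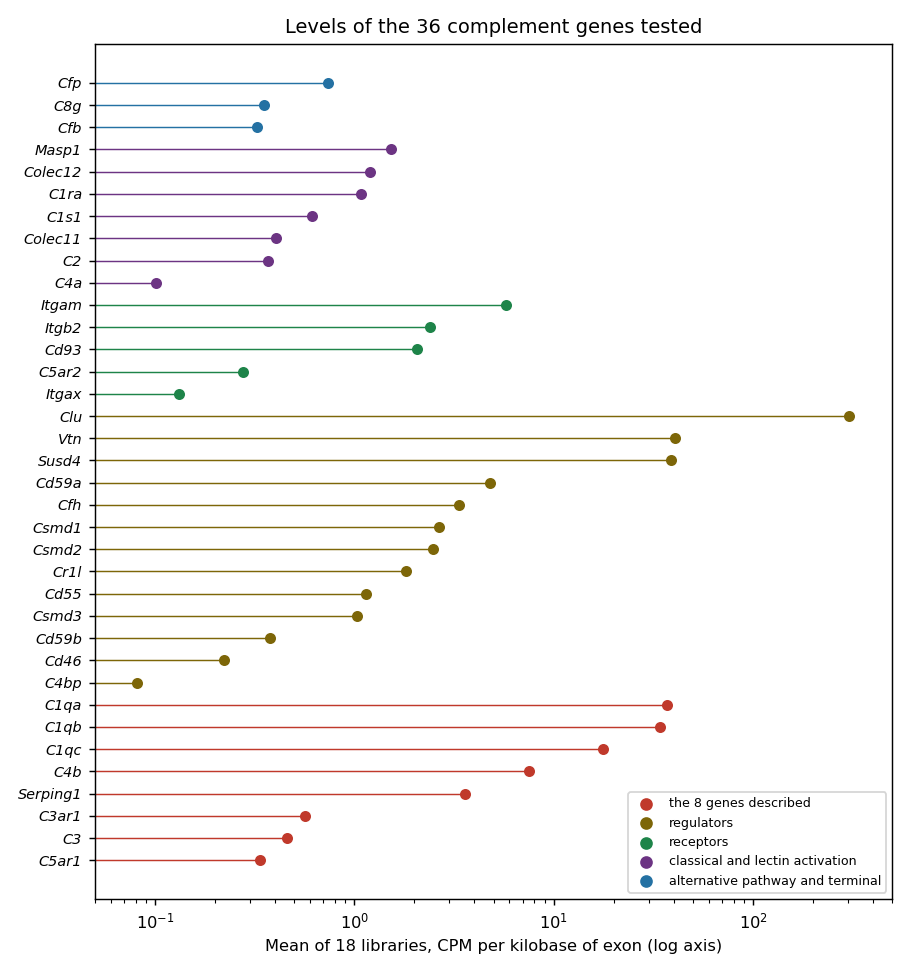
Mean level of each of the 36 complement genes tested over the 18 libraries, in CPM per kilobase of exon on a log axis, grouped by role. Clu, Vtn, Susd4, C1qa and C1qb are the highest, and most activating proteases and C3 lie near 1 CPM per kilobase or below.

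Other complement genes differed widely in level. Of 47 further genes, 28 had enough counts to be tested and 19 did not. The most abundant were regulators. Clu, a secreted chaperone that also blocks the terminal complex, averaged 1036 CPM, and Susd4, a membrane regulator, 150 CPM. Vtn, another regulator, averaged 82.1 CPM. Per kilobase of exon, Clu was at 301.5 CPM, Vtn at 40.4 and Susd4 at 39.0. Among receptors, Itgam, a subunit of complement receptor 3 on microglia, was at 29.1 CPM and its partner Itgb2 at 7.34 CPM. The proteases that C1q carries were at 3.21 CPM for C1ra and 1.92 CPM for C1s1. Several terminal components had hardly any counts. C9 had 1 count over all 18 libraries, C8a 2, C6 8 and C8b 9. Mbl1, a lectin pathway starter, and Cfd, a protease of the alternative pathway, had no count in any library. A count of 0 allows up to 0.124 to 0.159 CPM per library (3 counts, counting error only). Cfb, also of the alternative pathway, averaged 0.913 CPM.

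The comparison of CSDS with control asks which genes differ after repeated defeat. None of the 8 complement genes differed between these groups by edgeR's quasi-likelihood test with Benjamini-Hochberg adjustment over all genes. The share of all genes called was 0.0%, and 3.51% had an unadjusted p under 0.05, against 0 of the 8. DESeq2, which called 0.0032% of the genes with an adjusted p, and limma voom also called none of the 8. All 8 had overlapping groups, and 0.239% of all genes had groups that did not overlap. The median log2 fold change of the 8 was 0.03, beside 0.00 over all genes tested, with 6 of 8 above 0. Because this is bulk tissue, fewer cells of a type and less RNA per cell cannot be told apart in any of these values.

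C1qa, which encodes the A chain of C1q, lay between 28.8 and 50.8 CPM in control mice (median 38.8) and between 32.5 and 50.5 in CSDS mice (median 40.8). The ranges overlapped almost entirely. Its log2 fold change was 0.03 ± 0.14 (95% interval -0.27 to 0.34). C1qb, the B chain, was at 31.0 to 44.2 CPM in control (median 38.2) and at 34.4 to 49.9 in CSDS (median 37.0). The top of the CSDS range was set by replicate 6 alone. C1qc, the C chain, was at 30.6 to 42.4 CPM (median 34.0) and 31.8 to 44.3 CPM (median 38.5), again with CSDS replicate 6 highest. The fold changes were 0.02 ± 0.14 for C1qb and 0.10 ± 0.14 for C1qc, and the upper ends of their 95% intervals were 0.32 and 0.39. The groups overlapped for all 3 chains.

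C4b, the component that C1q's proteases cut, varied far more. It was at 10.4 to 56.1 CPM in control (median 41.1) and 28.1 to 75.2 CPM in CSDS (median 54.2). Control replicate 2, the library low in dentate markers, was the lowest of all 18, and 2 CSDS mice, replicates 4 and 5, were at 28.1 and 29.7 CPM while the other 4 were at 52.4 to 75.2 CPM. The log2 fold change was 0.40 ± 0.33 (interval -0.31 to 1.12, adjusted p = 0.993), and 0.21 ± 0.28 without control replicate 2. C3, the central component, was at 0.864 to 3.72 CPM in control and 0.731 to 3.65 CPM in CSDS, with medians of 2.76 and 2.26. Its fold change of -0.27 ± 0.39 had an interval from -1.10 to 0.57, which spans changes of either sign.

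C3ar1, the receptor for C3a, was at 1.77 to 3.17 CPM in control (median 2.21) and 1.69 to 2.87 CPM in CSDS (median 2.05). C5ar1, the receptor for C5a, was at 0.585 to 0.978 CPM in control (median 0.772) and 0.703 to 1.41 CPM in CSDS (median 0.965). CSDS replicates 1, 5 and 6 were above every control mouse for C5ar1, and the other 3 CSDS mice were within the control range. The log2 fold changes were -0.11 ± 0.21 for C3ar1 and 0.42 ± 0.27 for C5ar1, with unadjusted p of 0.604 and 0.144. C5ar1 rests on 9 to 31 counts per library, so its precision is limited by depth. Serping1 was at 2.81 to 11.8 CPM in control (median 8.94), lowest in control replicate 2, and at 5.74 to 12.0 CPM in CSDS (median 8.45). Its fold change was 0.01 ± 0.26, and -0.17 ± 0.19 without that library, a change of sign within the error.

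**Figure D2:**
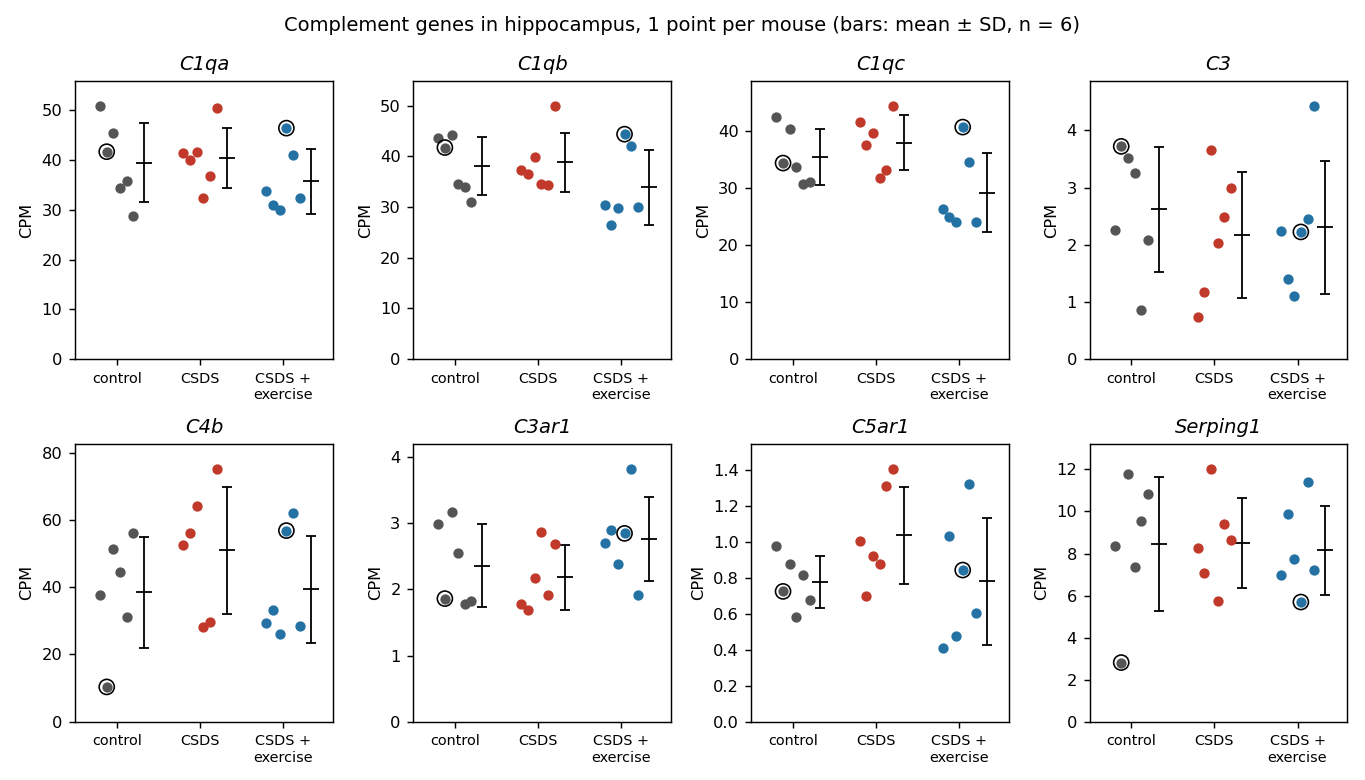
Level of each of the 8 genes in CPM (vertical axes from 0), with 1 point per mouse and the mean ± SD (n = 6) beside each group. Rings mark control replicate 2 and exercise replicate 4. Every gene's groups overlap, and 4 of the 6 trained mice are the 4 lowest mice for C1qc.

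Trained and defeated mice were compared with mice that were only defeated, to ask what exercise changes under defeat. edgeR called none of the 8 genes, beside 0.0% of all genes, and 1 of the 8, C1qc, had an unadjusted p under 0.05, beside 15.6% of all genes. At that background 1 of 8 is not a result about complement. All 8 had overlapping groups, and 0.89% of all genes did not. The calls depended on the test. DESeq2 called none of the 7 to which it gave an adjusted p (C5ar1 had none), beside 1.04% of all genes. Limma voom with quality weights called 5 of the 8, C1qa, C1qb, C1qc and C4b lower and C3ar1 higher, beside 33.3% of all genes. The median log2 fold change of the 8 was -0.19, beside 0.02 over all genes tested, and became -0.01 with the GC correction.

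C1qc was lower in trained mice, at 24.0 to 40.6 CPM (median 25.6), than in CSDS mice, at 31.8 to 44.3 CPM (median 38.5), without passing adjustment. The 4 lowest trained mice, at 24.0 to 26.3 CPM, were below every mouse of the other groups. Of these, exercise replicates 3 and 6, high in thalamic markers, were at 24.1 and 24.0 CPM. Exercise replicates 1 and 2 were at 26.3 and 24.9 CPM. Control replicates 1 and 3, also high in thalamic markers, were in the upper part of the control range, at 42.4 and 40.35 CPM. The part of thalamic tissue in the C1qc values was not tested. Exercise replicate 5 was at 34.6 and exercise replicate 4 at 40.6 CPM. The log2 fold change was -0.38 ± 0.14 (interval -0.67 to -0.091, edgeR adjusted p = 0.228), and the unadjusted p was 0.0114. Without exercise replicate 4 it was -0.52 ± 0.12 and passed (adjusted p = 0.0375), where 3.71% of all genes did. With the GC correction it was -0.22, with an unadjusted p of 0.0759, beside 5.96% of all genes at an unadjusted p under 0.05. Over all 30 alternatives C1qc stayed lower in trained mice, from -0.55 to -0.22, with adjusted p from 0.0015 to 0.989.

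C1qa and C1qb did not pass either. C1qa was at 30.0 to 46.4 CPM in trained mice (median 33.2), and C1qb at 26.4 to 44.4 CPM (median 30.3), with exercise replicates 4 and 5 highest for both. The fold changes were -0.18 ± 0.14 and -0.20 ± 0.14, and with the GC correction 0.10 for C1qa, which changed sign, and -0.00 for C1qb. C1q transcripts are rich in GC, at 59.5% for C1qa, 57.4% for C1qb and 56.6% for C1qc, against a median of 50.5% over the genes tested. The GC slope was lowest in trained mice, and its part in these differences was measured only by the corrected values.

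C4b was at 26.1 to 62.2 CPM in trained mice (median 31.4). Exercise replicates 4 and 5, at 56.8 and 62.2 CPM, were in the upper range of CSDS, and the other 4 trained mice were between 26.1 and 33.3 CPM. The log2 fold change was -0.37 ± 0.33 (interval -1.08 to 0.34, adjusted p = 0.588) and -0.26 with the GC correction. C3 was at 1.11 to 4.42 CPM (median 2.23), highest in exercise replicate 6, and its fold change was 0.09 ± 0.39.

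C3ar1 was at 1.91 to 3.82 CPM in trained mice (median 2.77), and exercise replicate 5 was above all 17 other libraries. Its log2 fold change was 0.33 ± 0.21, and 0.17 with the GC correction. This transcript is the poorest in GC of the 8, at 43.0%. C5ar1 was at 0.412 to 1.32 CPM (median 0.725), a range that held all CSDS values but that of replicate 6, and its fold change was -0.41 ± 0.28 (-0.45 with the GC correction). Serping1 was at 5.69 to 11.4 CPM (median 7.47), and its fold change was -0.07 ± 0.26.

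**Figure D3:**
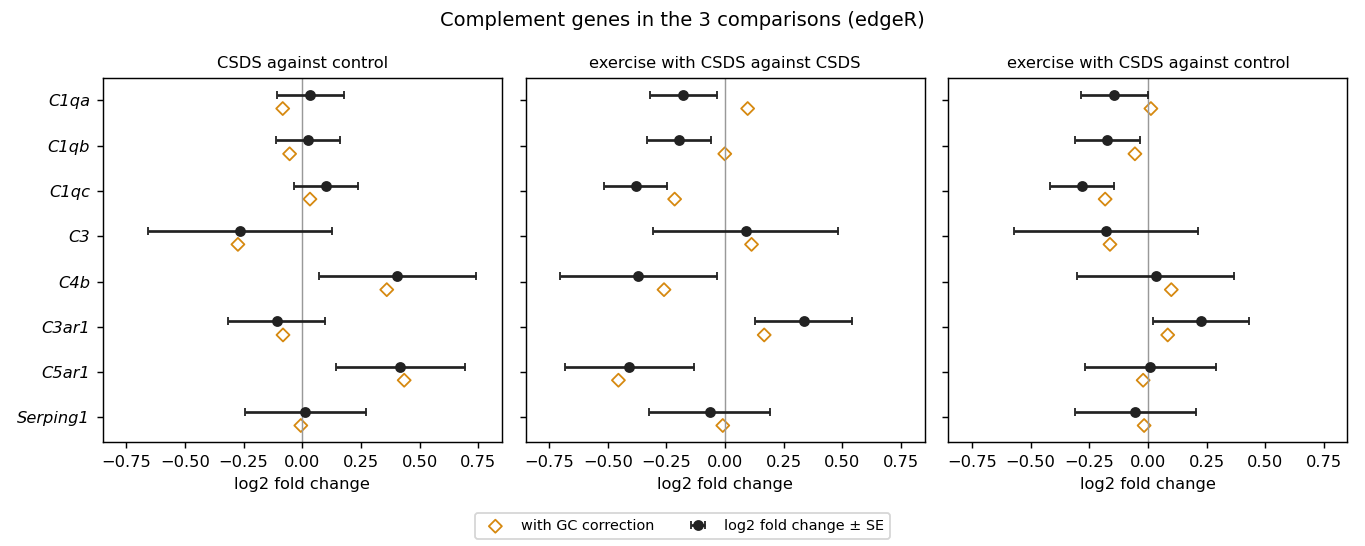
Log2 fold change ± SE (black circles) of the 8 genes in the 3 comparisons from edgeR over 18 libraries, with the value after the GC correction (open diamonds). C1qc in trained against CSDS mice, at -0.38, is the difference furthest from 0 relative to its error, and the diamonds of the C1q genes lie closer to 0 or across it.

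Trained mice were also compared with untreated controls. Any 2 of the 3 comparisons share a group of libraries, so their values are given side by side and not as separate support. edgeR called none of the 8, beside 0.0179% of all genes, and 0 of 8 had an unadjusted p under 0.05, beside 11.2% of all genes. DESeq2 and limma voom called none of the 8 either, beside 0.64% and 1.09% of all genes. All 8 had overlapping groups, and 0.562% of all genes did not. C1qc had a log2 fold change of -0.28 ± 0.14 (adjusted p = 0.455) and -0.18 with the GC correction. C1qa was at -0.14 ± 0.14, C1qb at -0.17 ± 0.14 and C3 at -0.18 ± 0.39. The 4 others were at 0.23 ± 0.21 for C3ar1, 0.03 ± 0.33 for C4b, 0.01 ± 0.28 for C5ar1 and -0.05 ± 0.26 for Serping1. The median of the 8 was -0.10, beside 0.01 over all genes.

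Of the 28 other complement genes, edgeR and DESeq2 called 0 in each comparison, and limma voom called 3 (Csmd3 and Cd46 higher, Csmd2 lower) in trained against CSDS mice, beside 33.3% of all genes, and 0 in the others. At an unadjusted p under 0.05 there were none in CSDS against control, none in trained against CSDS, and 2, both higher, in trained against control mice, beside 3.51%, 15.6% and 11.2% of all genes. These counts are not above the background, and the genes are described by their values. Csmd3, a large membrane protein with complement control modules, was at 20.0 ± 2.88 CPM in trained and 15.1 ± 2.95 CPM in control mice. Its log2 fold change was 0.41 ± 0.13 (edgeR adjusted p = 0.273), and 0.21 with the GC correction. The lowest control value of Csmd3 was that of control replicate 2, at 9.58 CPM. Without that library the fold change was 0.30 ± 0.11, and 0.094 with the GC correction as well. Cd46, a membrane cofactor for inactivating C3b and C4b, was at 2.26 ± 1.08 CPM in trained and 1.30 ± 0.45 CPM in control mice. Its fold change was 0.80 ± 0.35 (edgeR adjusted p = 0.41), and 0.48 with the GC correction. Csmd2, of the same family as Csmd3, was at 48.7 ± 11.9 CPM in CSDS and 37.9 ± 9.15 CPM in control mice (0.36 ± 0.19, edgeR adjusted p = 0.993). Cd93, a C1q-receptor-related protein of endothelium and myeloid cells, was at 12.7 ± 0.894 against 14.5 ± 1.77 CPM in the same comparison (-0.20 ± 0.096, edgeR adjusted p = 0.993). Itgam and Itgb2 had fold changes between -0.076 and 0.070 in all 3 comparisons.

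The 8 genes fell into a tight trio and loosely related others when their variation over mice was followed. Correlations are given as descriptions over the 18 libraries, which share library GC trends, with no test. Pearson's r of log2 CPM was 0.929 for C1qa with C1qb, 0.895 for C1qb with C1qc and 0.873 for C1qa with C1qc, and Spearman's rho was 0.924, 0.922 and 0.901. Within each of the 3 groups the C1q pairs had r from 0.823 to 0.984. With the GC correction the same pairs were at 0.891, 0.793 and 0.657. Leaving out the 2 libraries furthest from the median of the gene named first gave 0.946, 0.864 and 0.911. The median r over the 28 pairs of the 8 genes was 0.283, and these 3 were the only pairs above 0.8.

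The genes most like C1qa and C1qb among 13388 compared, apart from the C1q genes, included Cd14, a myeloid receptor for bacterial lipopolysaccharide, with r of 0.860 and 0.859. C1qc had Otud5, a deubiquitinase, between C1qb and C1qa, at 0.888. With the GC correction C1qc kept 0 of its 3 most similar genes, and C1qa, C1qb, C4b and C3ar1 kept 1 of 3 each. C3ar1 was most like Parn, a poly(A) ribonuclease, at 0.858. C5ar1 was most like Ifi30, a lysosomal thiol reductase, at 0.739, and C3 like Ift52, a ciliary transport protein, at 0.757. C4b had Shb, Dll1 and Gpi1 at 0.937, 0.902 and 0.897, and none of these 3 remained among its top 3 without control replicate 2. C3 and C5ar1 likewise kept 0 of 3 without that library.

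**Figure D4:**
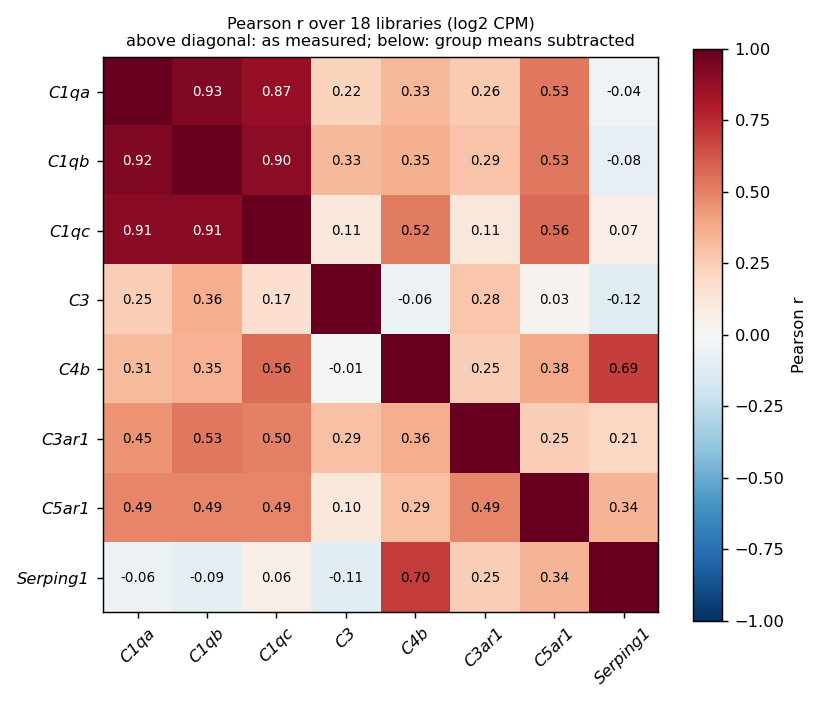
Pearson correlation of log2 CPM between the 8 genes over 18 libraries, as measured (above the diagonal) and after subtracting each group's mean (below). The C1q block is at 0.87 or above in both, and C4b with Serping1 is at 0.69 above the diagonal.

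C4b was the most variable of the 8 relative to genes of its level. Its biological coefficient of variation within groups was 40.0%, against 19.2% for the trend of genes as abundant. C3 was at 46.0% against 35.0%, Serping1 at 31.0% against 24.6%, and the C1q genes at 17.2% to 17.8% against 19.3% to 19.6%. C4b had r of 0.618 with the library's GC slope over 18 libraries, 0.760 without control replicate 2, and 0.562 to 0.896 within the 3 groups. Over the 18 libraries r with that slope was 0.729 for C1qc, 0.481 for C1qb, 0.453 for C1qa and -0.225 for C3ar1. Within control mice the C1q genes had the opposite sign, at -0.334 for C1qc, -0.569 for C1qb and -0.594 for C1qa, while within CSDS and within trained mice they were between 0.463 and 0.903. C4b and the C1q genes had r from 0.803 to 0.938 within CSDS and within trained mice, but from -0.326 to 0.0968 within control mice. With the GC correction C4b had r of -0.084 with C1qa, 0.021 with C1qb and 0.306 with C1qc over the 18 libraries.

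C4b and Serping1 had r of 0.69 over 18 libraries, and 0.348 without control replicate 2, so the relation rests on that library. Serping1 was tied more to markers of fibroblasts of the meninges and vessels. Its r with the mean of 10 such markers was 0.759, and 0.549 without control replicate 2. Within control, CSDS and trained mice it was 0.803, 0.80 and 0.735. With the mean of 8 choroid plexus markers r was 0.637 (0.486 without that library), and with that of 16 microglial markers -0.572. The fibroblast markers, 10 of 10 tested, summed to 78.9 to 469 CPM in control, 199 to 551 CPM in CSDS and 138 to 411 CPM in trained mice. The choroid plexus markers, 8 of 8 tested, summed to 19.9 to 5511 CPM in control, 98.3 to 8524 CPM in CSDS and 66.6 to 6612 CPM in trained mice. Their part in the Serping1 values was not tested. The genes most like Serping1 were Bdh2, a ketone body enzyme, at 0.895, Lgals3, a galectin of phagocytes, at 0.885, and Cyp1b1, a cytochrome, at 0.869.

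**Figure D5:**
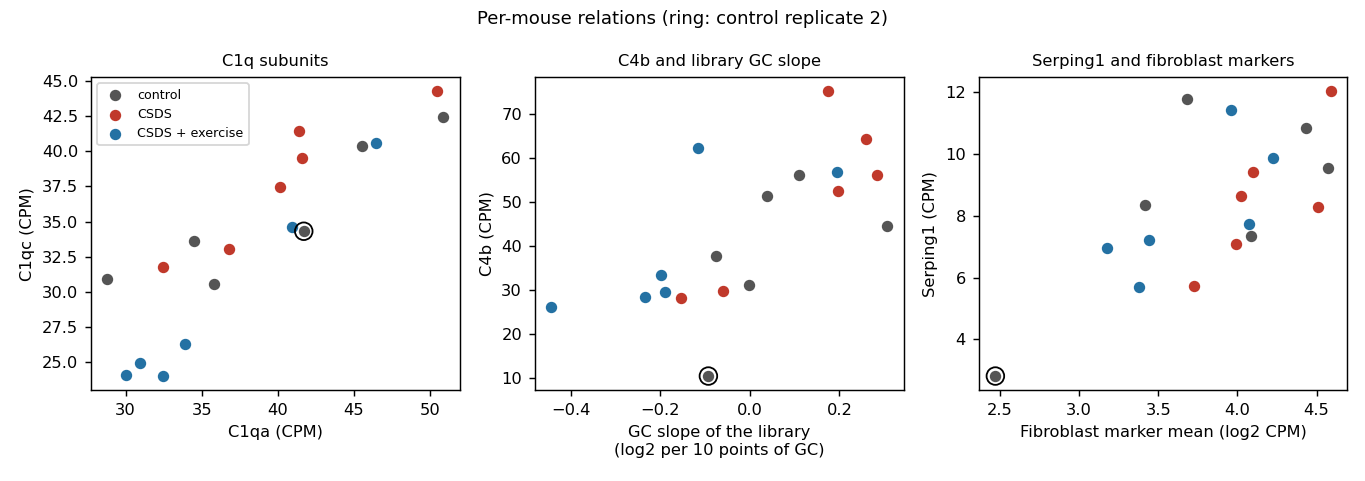
Each point is 1 mouse: C1qc against C1qa in CPM (left), C4b in CPM against the library's GC slope in log2 units per 10 percentage points (middle), and Serping1 in CPM against the mean log2 CPM of 10 fibroblast markers (right). Control replicate 2, ringed, is the lowest library for C4b and Serping1 and lies among the others for C1q, and 4 trained mice lie together at low C1qc.

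Microglial markers were read beside the C1q genes, since microglia are their main source. All 16 markers were tested and edgeR called none. In trained against CSDS mice 1 of the 16 had an unadjusted p under 0.05, and DESeq2 called 1 and limma voom 5, beside 15.6%, 1.04% and 33.3% of all genes. Their summed level was 494 to 622 CPM in control, 501 to 579 CPM in CSDS and 456 to 676 CPM in trained mice, with exercise replicate 4 highest. The median log2 fold change of the list was 0.02 in CSDS against control, -0.01 in trained against CSDS and -0.05 in trained against control. Tmem119, a microglial surface protein, was at 22.9 ± 2.44 CPM in trained and 31.6 ± 3.62 CPM in CSDS mice (-0.47 ± 0.10, edgeR adjusted p = 0.147, called by DESeq2 at an adjusted p of 0.00441, -0.14 with the GC correction). P2ry12, a microglial purine receptor, was in the other direction at 0.34 ± 0.19, and 0.04 with the GC correction. Markers of border macrophages, monocytes and neutrophils were low, from 0.344 CPM for Ms4a7 to 3.21 CPM for Mrc1, and none of the 11 was at 0 in any library. These 11 summed to 6.52 to 31.5 CPM in control, 9.85 to 19.7 CPM in CSDS and 9.80 to 16.3 CPM in trained mice, and their part in the complement values was not tested.

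The mean of the C1q genes minus that of the microglial markers was 0.85 ± 0.18 log2 units in control, 0.92 ± 0.25 in CSDS and 0.66 ± 0.21 in trained mice, with ranges that overlapped. Over 18 libraries the list mean followed the C1q genes only moderately, with r of 0.469 for C1qa, 0.441 for C1qb and 0.319 for C1qc. The sign differed between groups. Within control mice r was 0.701, 0.627 and 0.464, within trained mice 0.676, 0.697 and 0.710, and within CSDS mice -0.532, -0.391 and -0.621.

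Interferon-stimulated genes were read beside C4b and Serping1, which interferons are known to induce. The list's median log2 fold change over 24 tested genes was 0.32 in CSDS against control, -0.70 in trained against CSDS and -0.24 in trained against control, with none called by edgeR. In trained against CSDS mice 13 of the 24 had an unadjusted p under 0.05, all lower, and DESeq2 called 1 and limma voom 19, beside 15.6%, 1.04% and 33.3% of all genes in either direction. The r of C4b with the list mean was 0.589 over 18 libraries, 0.499 within control, 0.916 within CSDS and 0.163 within trained mice. Tap1, a peptide transporter for antigen presentation, had the highest r with C4b of the single genes of the list, at 0.788. Serping1 was at 0.400 with the list mean, and C1qc, C1qa and C1qb were at 0.548, 0.408 and 0.393. The relation was thus not particular to C4b and Serping1. Within control, CSDS and trained mice C1qc was at 0.303, 0.867 and 0.0533.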

How the data were processed

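Each library was made from the hippocampus of 1 mouse. Per the labels' protocols, libraries were stranded and poly(A)-selected, from RNA with integrity of 7 or more. The authors deposited 1 table of estimated counts (expected counts) per gene. Their processing notes name fastp, HISAT2, RSEM and GRCm38 (mm10). Their versions, the annotation release and the strand setting were not given in the sources used here. Values were rounded for testing (22.7% of nonzero ones had decimals). The 8 genes and all gene lists were chosen with earlier results of these data known.

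The test was that of edgeR 4.0.16 under R 4.3.3 (filterByExpr with a minimum count of 10 and total of 15, TMM, quasi-likelihood F test, all 18 libraries, 15 residual degrees of freedom). Benjamini-Hochberg adjustment was over all 16738 genes, with a threshold of 0.05. SE and 95% intervals come from the same fit. The fit was tested on simulated counts with known changes. These were drawn at the trend of variation, with no GC trend and no outlying library, so they do not cover those features of the data. CPM are TMM-scaled, and log2 CPM used a prior count of 2. The GC correction smoothed each library's deviation on transcript GC (GENCODE M21, 98.1% of tested genes, lowess span 0.3) and entered as an offset. Alternatives were DESeq2 1.42.0 (run without the filter), limma 3.58.1 voom with quality weights, RLE and plain scaling, other filters, a replicate block, the 2 groups alone, and each library left out. The GC correction without control replicate 2, or without exercise replicate 4, and likeness with group means subtracted were chosen after seeing the data. Likeness was ranked among tested genes with a mean of at least 1 CPM. Named genes were the 8, the other complement genes with the 10 smallest p per comparison or among the 4 most abundant of a role, up to 4 genes per other list, defining markers, and the 3 genes most like each of the 8. C1r and C1s genes, C4a and terminal components were named for their role. Tap1 was named as the interferon-stimulated gene with the highest r with C4b.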

Additional observations from a re-analysis of the deposited data

Results flagged for a closer look

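By Dixon's 95% limit, 5 values lay far from the rest of their group of 6. In all 66 groups were examined, and chance gives such a value in about 5% of groups. C1qb in CSDS replicate 6 was at 49.9 CPM, against 34.4 to 40.0 CPM in the other 5 CSDS mice. Itgam in exercise replicate 4 was at 42.7 CPM, against 24.0 to 29.0 CPM in the other 5 trained mice. Csmd2 in the same library was at 58.0 CPM, against 29.0 to 39.8 CPM. The ratio of C4b to Serping1 there was 9.98, against 3.37 to 5.45. Masp1, a lectin pathway protease gene, was at 27.0 CPM in control replicate 2, the library high in neocortical markers, against 13.1 to 16.7 CPM in the other 5 controls.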

How the results depend on the processing

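The limits are 6 mice per group, a GC trend that differed between groups, and few counts for C5ar1, C3 and C3ar1. Regional markers are a further limit. Control replicate 2 stood apart in dentate and neocortical markers. Thalamic markers were high in control replicates 1 and 3 and exercise replicates 3 and 6, and in no CSDS mouse. Where a cause is not given below, the cause was not tested. Genes called in CSDS against control were 0, and 1 with DESeq2. In trained against CSDS mice they were 0, with 150 by DESeq2, 5567 by limma voom, 2 without a filter, 1 with the GC correction, 1 with the 2 groups alone and 0 to 625 with 1 library left out (43 without CSDS replicate 5, 625 without exercise replicate 4). Of the 8 genes, limma voom called 5 there, and leaving out 1 library called 0 to 1, namely C1qc without exercise replicate 4. In trained against control mice 3 genes were called, with 111 by DESeq2, 183 by limma voom, 0 without a filter, with 1 CPM in 6 libraries, with the replicate block, with the GC correction, with both, with the 2 groups alone and with the GC correction without control replicate 2. The count was 1 with the GC correction without exercise replicate 4, and 0 to 13 with 1 library left out. The labels do not say that shared replicate numbers pair the mice. The 18 same-numbered pairs had r of -0.465 to 0.255 and 0 libraries were closest to their own number. These values cannot show whether mice were paired. The replicate block called 0 genes in the other 2 comparisons as well, and it called none of the 8.

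Log2 fold changes near 0 changed sign. In CSDS against control, C1qa was at -0.083 with the GC correction, -0.066 with GC and the block, and -0.050 and -0.084 with GC without control replicate 2 or exercise replicate 4, and C1qb at -0.054, -0.054, -0.012 and -0.055. Serping1 was at -0.085 by limma voom, -0.0095 with plain library size, -0.0096 without a filter, -0.010 with the 2 groups alone, -0.0064 with the GC correction, and -0.18 and -0.0071 with GC without the same 2 libraries in turn. In trained against CSDS mice, C1qa was at 0.096, 0.094, 0.096 and 0.076 in the 4 GC settings. Serping1 was at 0.017 with GC and the block and 0.088 with GC without exercise replicate 4. Csmd3 was at -0.0056, -0.0066, -0.0063 and -0.033 in the 4 GC settings. In trained against control mice, C1qa was at 0.013 with GC, 0.028 with GC and the block and 0.046 with GC without control replicate 2. By limma voom C3 was at 0.065, C4b at -0.11 and C5ar1 at -0.26. C4b was at -0.095 with GC without control replicate 2. C5ar1 was at -0.018 without a filter, -0.034 with the replicate block, and -0.021, -0.065, -0.040 and -0.053 in the 4 GC settings. Serping1 was at 0.035 with GC and the block and 0.081 with GC without exercise replicate 4.

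With each library left out in turn, C1qa in CSDS against control ranged from -0.042 to 0.12, C1qb from -0.062 to 0.070 and Serping1 from -0.17 to 0.13. In trained against CSDS mice C3 ranged from -0.20 to 0.30 and Serping1 from -0.19 to 0.057. In trained against control mice C4b ranged from -0.16 to 0.17, C5ar1 from -0.20 to 0.14, Serping1 from -0.23 to 0.064 and Csmd2 from -0.080 to 0.19.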

Other observations

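The subunits of C1q are needed in equal number in the protein. The CPM ratios of their transcripts are not adjusted for length, so they are compared here only between mice. The CPM ratio of C1qb to C1qa was 0.976 ± 0.0713 in control, 0.961 ± 0.0608 in CSDS and 0.943 ± 0.0638 in trained mice (SD, n = 6). The ratio of C1qc to C1qa was 0.823 to 1.07 in control, 0.877 to 1.00 in CSDS and 0.740 to 0.874 in trained mice, so that CSDS and trained mice did not overlap. With the GC correction they did, at 0.862 to 1.07 and 0.700 to 0.893. The means of CSDS and trained mice were 0.940 ± 0.047 and 0.807 ± 0.048 as measured. They were further apart with the correction, at 0.972 ± 0.071 and 0.777 ± 0.066, with a wider spread. This ratio was chosen after its values were seen, so it is given as a description with no test. The C1qc to C1qb ratio overlapped, at 0.887 to 1.11 in CSDS and 0.799 to 0.945 in trained mice.

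Apoe, a lipoprotein gene that microglia and astrocytes express, was at 1498 ± 97.5 CPM in trained and 1778 ± 106 CPM in CSDS mice, and these groups did not overlap, as for 0.89% of all genes. Its log2 fold change was -0.25 ± 0.10 (edgeR adjusted p = 0.268) and 0.06 with the GC correction, a change of sign. The C1q genes also followed the mean of 8 endothelial markers over the 18 libraries, with r of 0.553 for C1qa, 0.595 for C1qb and 0.445 for C1qc. With the microglial list the values were 0.469, 0.441 and 0.319, and negative within CSDS mice.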
